A study of Mus musculus with 4 samples.

Results

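The interstitial collagens and the stromal matrix genes encode the proteins that fill the space between epithelial tubules. The group was taken by gene symbol, as every numbered collagen chain gene except those of type IV collagen, together with 15 genes of elastic fibers, fibulins, proteoglycans and matrix glycoproteins. The rule found 52 genes, 37 collagen genes and 15 others, among the 38201 genes of the deposited table. Of these, 50 passed the filter on low values and 40 had an average of at least 1 FPKM (fragments per kilobase of transcript, scaled to the number of mapped fragments) in either genotype.

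RNA was sequenced from kidney cells of mouse embryos at 18.5 days of gestation, sorted with Dolichos biflorus agglutinin, a lectin that binds ureteric epithelium. The DKO group had 2 libraries from embryos of the genotype Esrp1 -/-, Esrp2 -/-, and the control group had 2 libraries from embryos of the genotype Esrp1 +/+, Esrp2 -/-, so that both groups lacked Esrp2. Esrp1 and Esrp2 are epithelial splicing regulators, and both alleles were germline deletions present in every cell type of the kidney. Each library was made from RNA pooled from 3 embryos, so the 2 libraries of a group were separate pools and the spread between single embryos was not measured.

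Collagen chains coil around each other in a triple helix built on repeats of glycine and a pair of other residues, because only glycine is small enough for the core. Fibrillar collagens then assemble into banded fibrils, to which fibril-associated collagens and small leucine-rich proteoglycans attach, while elastin is laid on a scaffold of fibrillin microfibrils and cross-linked by lysyl oxidase. In the developing kidney these genes are typically transcribed by stromal, perivascular and smooth muscle cells around the ureteric tree. Ureteric epithelium itself mainly makes basement membrane proteins, including type XVIII collagen.

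The fibrillar collagen genes carry their protein repeat in their exon sizes. The 3 chains with the highest log2 differences between the genotypes, with all libraries in the fit, are shown for this reason. In the GENCODE M21 annotation of the mouse genome (mm10, GRCm38) 305 of 627 wholly coding exons of the 11 fibrillar collagen genes were exactly 54 bases long, or 48.6%, against 0.731% of 160443 wholly coding exons of all protein-coding genes. Each sequence is the first 54-base exon of its gene that starts on a codon, read 5′ to 3′ on the plus strand, and the capitals mark the glycine codon that recurs every 9 bases, 6 times in each exon. The first is exon 8 of 51 of Col1a1 at chr11:94939904-94939957, the next is exon 8 of 52 of Col1a2 at chr6:4515481-4515534, and the last is exon 6 of 51 of Col3a1 at chr1:45325360-45325413.
Col1a1: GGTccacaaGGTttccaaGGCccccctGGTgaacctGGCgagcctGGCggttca
Col1a2: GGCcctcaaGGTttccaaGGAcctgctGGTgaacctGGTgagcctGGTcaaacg
Col3a1: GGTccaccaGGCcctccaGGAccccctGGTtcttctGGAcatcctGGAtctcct

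The exon size was shared less widely outside the fibrillar genes. Exons of 54 bases made up 26.3% of those in the 9 fibril-associated collagen genes, 9.15% in the transmembrane collagens, 7.04% in the microfibril, network and anchoring collagens and 5.19% in the multiplexin collagens XV and XVIII. None of the 22 wholly coding exons of the proteoglycan genes and none of the 99 of the adhesive glycoprotein genes had that length.

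The promoter sequences used held no entry for Col1a1. Those of Col1a2 and Col3a1, whose exons are printed above, are shown. They were taken from RefSeq on GRCm38.p6 and run from 250 bases before to 50 bases after the start of transcription, on the plus strand, at chr6:4505368-4505667 for Col1a2 and chr1:45311288-45311587 for Col3a1. Capitals mark every match on either strand to CCAAT, whose reverse complement is ATTGG, to TATAAA, whose reverse complement is TTTATA, and to GGGCGG, whose reverse complement is CCGCCC, and none of the matches overlap each other.
Col1a2: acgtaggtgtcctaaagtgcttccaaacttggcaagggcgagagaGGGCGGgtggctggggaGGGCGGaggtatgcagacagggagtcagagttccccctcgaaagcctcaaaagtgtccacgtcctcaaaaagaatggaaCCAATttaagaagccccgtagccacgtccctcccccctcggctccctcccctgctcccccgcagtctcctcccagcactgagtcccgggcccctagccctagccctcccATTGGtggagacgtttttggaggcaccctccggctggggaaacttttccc
Col3a1: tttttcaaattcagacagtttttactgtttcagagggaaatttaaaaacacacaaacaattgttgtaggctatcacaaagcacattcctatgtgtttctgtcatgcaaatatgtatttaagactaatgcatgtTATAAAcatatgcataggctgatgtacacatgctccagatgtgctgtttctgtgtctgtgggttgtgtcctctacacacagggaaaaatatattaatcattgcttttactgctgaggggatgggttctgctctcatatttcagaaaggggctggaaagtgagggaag

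The Col1a2 sequence held GGGCGG 205 and 188 bases before the RefSeq start, CCAAT 109 bases before it and ATTGG at the start itself, and the Col3a1 sequence held TATAAA 117 bases before it. The GENCODE gene model of Col1a2 begins further upstream, so more than 1 start is annotated for that gene. Over the 46 promoter sequences that matched 39 of the 52 genes, either strand of GGGCGG was present in 58.7%, against 35.7% of 32851 mouse promoters of the same length. Either strand of CCAAT was present in 28.3%, against 37.4% of all promoters, and either strand of TATAAA in 17.4%, against 13.6%. These are letter matches and not measured sites, and their part in the levels of the matrix genes was not tested.

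The sorted cells carried the marks of ureteric epithelium and of other kidney cell types. All 16 ureteric markers, such as Ret, Gata3 and Cdh1, were above 0 in every library. Their FPKM summed to 1973 and 2081 in DKO cells against 1512 and 2013 in control cells, with a median log2 difference of 0.03. Both DKO libraries lay above both controls in 6 of the 16 and below them in 2, and 8 overlapped. Over all genes tested 20.8% lay above and 22.6% below. All 18 stromal markers were above 0 in every library too. Relative depth, read from the steps between low FPKM values, was 0.508 for control replicate 1 and between 1 and 1.10 for the others, with DKO replicate 1 set at 1. The targeted gene Esrp1 was listed at 8.65 and 7.29 FPKM in DKO cells against 27.0 and 31.4 in control cells, and Esrp2 at 1.35 and 0.519 against 1.72 and 0.802. The sources used here do not give the exons that the alleles remove, so transcripts of a deleted gene may still be counted.

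The matrix genes as a group took a larger part of the DKO libraries. Their summed FPKM was 760.0 in DKO replicate 1 and 1001 in DKO replicate 2, and the controls gave 484 for replicate 1 and 622 for replicate 2, which was 0.131% and 0.162% of the FPKM sum of the DKO libraries and 0.0714% and 0.0977% of that of the controls. With the mitochondrial transcripts set aside, the shares were 0.161% and 0.199% against 0.0958% and 0.127%. Both DKO libraries lay above both controls, and the replicates of each genotype also differed from each other. In bulk RNA, a larger number of matrix-producing cells and more matrix RNA in each of them cannot be told apart, and the same holds for fewer cells of a type and less RNA per cell.

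Genes were compared with limma on log2(FPKM + 0.5), with calls made where the p adjusted by Benjamini-Hochberg over all 18884 genes tested was under 0.05 and average FPKM differed by at least 2-fold. None of the 50 matrix genes tested was called in either direction. Across all genes 3, or 0.0159%, were called higher in the DKO libraries and 1, or 0.0053%, was called lower, and with the libraries rescaled to TPM 6 were called higher and 0 lower. The smallest adjusted p of a matrix gene was 0.371, for Col12a1. At an unadjusted limma p under 0.05, 25 of the 50 matrix genes were higher in the DKO libraries and 0 were lower, while 3.35% of all genes tested were higher and 7.35% lower. That count varied with the library left out, and was 10 without DKO replicate 1, 1 without DKO replicate 2, 12 without control replicate 1 and 23 without control replicate 2. With 2 libraries against 2, an exact two-sided permutation test of a single gene cannot go below p = 0.333.

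In 36 of the 50 genes both DKO libraries lay above both controls, against 20.8% of all genes tested. In 2 genes both DKO libraries lay below both controls, against 22.6% of all genes, and in 12 the genotypes overlapped. The ratio of average FPKM was at least 2 in 19 of the 50, against 6.75% of all genes. The log2 difference on the FPKM + 0.5 scale, which understates the change of low genes, had a median of 0.57 over the 50 genes and -0.01 over all genes, and ran from -0.26 for Col20a1 to 1.42 for Col1a1. The collagen genes had a median of 0.55 and the other matrix genes 0.65. The shares over all genes, 20.8% above and 22.6% below the controls, also stand beside the counts of each class and list given further on. For the counts at an unadjusted limma p under 0.05 these shares are 3.35% higher and 7.35% lower. Genes measured in the same libraries can vary together, so such counts are not counts of independent results.

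**Figure D1:**
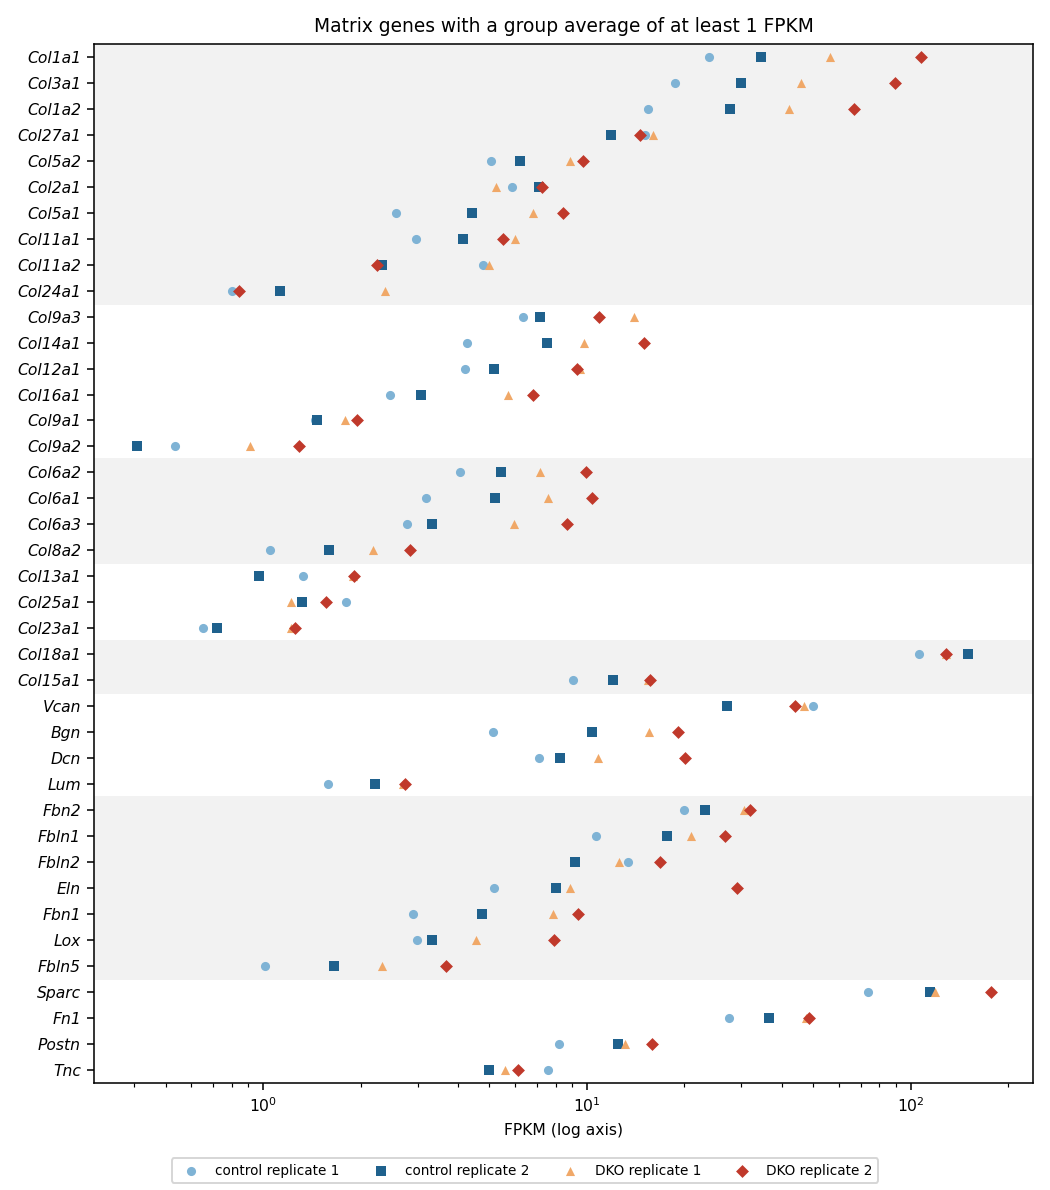
FPKM of the 40 matrix genes with a group average of at least 1 FPKM, 1 symbol for each library, on a log axis; shaded bands separate the gene classes in the order in which the text describes them, from fibrillar collagens at the top to adhesive glycoproteins at the bottom, with the transmembrane collagens before the multiplexins. In 31 of the 40 genes both DKO symbols lie to the right of both control symbols, and in 9, such as Col18a1 and Vcan, they overlap.

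With all libraries in the fit, the chains of the major interstitial fibrils had the highest log2 differences on the FPKM + 0.5 scale. Without DKO replicate 2 the log2 difference of Col1a1 was 0.96, below the 1.03 of Bgn. By the ratio of average FPKM, Eln at 2.88 and the scarce Col6a5, Col28a1 and Col6a4, all under 1 FPKM, stood above Col1a1 at 2.81, and without DKO replicate 1 the log2 difference of Eln, 2.09, also exceeded the 1.89 of Col1a1. Col1a1, which encodes the α1 chain of type I collagen, was listed at 56.3 and 107 FPKM in DKO cells against 23.8 and 34.4 in control cells. Its partner chain Col1a2 was listed at 42.1 and 67.0 FPKM against 15.4 and 27.7, and Col3a1, the single chain of type III collagen, at 45.7 and 89.3 against 18.7 and 29.8. DKO replicate 2 was highest and control replicate 1 lowest for all 3 genes, without overlap between the genotypes. The log2 differences were 1.42 ± 0.35 (SE) for Col1a1, 1.34 ± 0.35 for Col1a2 and 1.42 ± 0.38 for Col3a1, with limma adjusted p-values of 0.380, 0.384 and 0.384. Exons of Col3a1 overlap those of the gene model Gm47302 on the same strand, so part of its FPKM may not be its own.

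Type V collagen, which mixes into type I fibrils and limits their width, followed at lower levels. Col5a1 was listed at 6.80 and 8.43 FPKM in DKO cells against 2.57 and 4.40 in control cells, with a log2 difference of 1.06 ± 0.29 (SE). Col5a2 was listed at 8.85 and 9.72 FPKM against 5.05 and 6.20, a log2 difference of 0.68 ± 0.18. The genotypes did not overlap for either chain, and the scarce Col5a3 was below 1 FPKM in all 4 libraries.

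The fibrillar collagens best known from cartilage did not share one pattern. Col2a1, the chain of type II collagen, was listed at 5.24 and 7.24 FPKM in DKO cells against 5.87 and 7.11 in control cells, a log2 difference of -0.06 ± 0.23 (SE). Col11a1, which helps start such fibrils, was listed at 5.99 and 5.51 FPKM against 2.97 and 4.13. Its partner Col11a2 was listed at 4.97 and 2.24 against 4.79 and 2.32, so that each genotype had one high and one low library. Col27a1 was nearly level, at 16.0 and 14.6 FPKM against 15.1 and 11.9, and Col24a1 was listed at 2.38 and 0.843 against 0.804 and 1.13. Of the 11 fibrillar genes, 7 lay above the controls in both DKO libraries, 4 overlapped and 6 had an unadjusted p under 0.05, with a median log2 difference of 0.64.

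Fibril-associated collagens sit on the surface of fibrils. Col12a1, which binds type I fibrils, was listed at 9.49 and 9.32 FPKM in DKO cells against 4.21 and 5.17 in control cells. Its replicates were close, and its log2 difference of 0.94 ± 0.18 (SE) had the smallest unadjusted p of the matrix genes, 0.0034 by limma, or 0.371 after adjustment. Col14a1, which also decorates type I fibrils, was listed at 9.78 and 15.0 FPKM against 4.27 and 7.52, and Col16a1 at 5.71 and 6.82 against 2.46 and 3.08. The log2 differences of these were 1.03 ± 0.34 and 1.05 ± 0.22.

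Type IX collagen, which coats type II fibrils in cartilage, has 3 chains of unequal level here. Col9a3 was listed at 14.0 and 10.9 FPKM in DKO cells against 6.35 and 7.18 in control cells. Col9a1 was listed at 1.79 and 1.94 FPKM against 1.45 and 1.47, and Col9a2 at 0.913 and 1.29 against 0.534 and 0.408. All 3 lay above the controls in both DKO libraries, but Col9a3 stood several times higher than its partners in every library. Of 7 chondrocyte markers, 5 passed the filter on low values and 2 of these had an unadjusted limma p under 0.05, both higher. These were Sox9, which ureteric epithelium also expresses, at 45.4 and 44.5 FPKM against 38.9 and 32.7, and Lect1, which encodes chondromodulin, at 3.83 and 3.80 against 1.63 and 1.07. Of the 5, 2 lay above and 1 below the controls and 2 overlapped. The one below was Matn1, a cartilage matrix protein, at 0 and 0.0567 FPKM against 0.550 and 0.0843. Acan and Comp, which mark cartilage matrix, were at most 0.125 FPKM, and their part in the levels of the cartilage-type collagens was not tested.

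The only tested matrix genes whose DKO libraries both lay below the controls were Col20a1, at 0.292 and 0.115 FPKM against 0.325 and 0.342, and Col22a1, at 0.110 and 0.0473 against 0.243 and 0.130. Both are fibril-associated collagens and both were far under 1 FPKM, and Col20a1 shares exonic sequence with another gene model on its strand. Over the 8 genes of the class that were tested, 6 lay above and 2 below the controls, 5 had an unadjusted limma p under 0.05, all higher, and the median log2 difference was 0.77.

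Type VI collagen forms beaded microfibrils near cell surfaces from its α1, α2 and α3 chains. Col6a1 was listed at 7.57 and 10.4 FPKM in DKO cells against 3.19 and 5.20 in control cells. For Col6a2 the values were 7.16 and 9.92 FPKM against 4.06 and 5.42, and for Col6a3 5.95 and 8.70 against 2.78 and 3.32. The 3 chains had like levels within each library and shared the order of the libraries, with control replicate 1 lowest and DKO replicate 2 highest. Their log2 differences were 1.03 ± 0.29 (SE), 0.78 ± 0.24 and 1.12 ± 0.25.

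The network-forming and anchoring collagens were scarcer. Col8a2, a chain of the hexagonal network of type VIII collagen, was listed at 2.19 and 2.85 FPKM against 1.05 and 1.60. Col7a1, the chain of the anchoring fibrils of skin, was listed at 1.23 and 0.548 FPKM in DKO cells against 0.549 and 1.15 in control cells, which overlap, and Mir711 shares exonic sequence with it on the same strand. Col6a5 was listed at 0.742 and 0.791 FPKM against 0.137 and 0.283, with a log2 difference of 0.84 ± 0.25 (SE). Of the 10 genes of this class that were tested, 8 lay above the controls and 2 overlapped, 5 had an unadjusted limma p under 0.05 and the median log2 difference was 0.60. Col10a1, the collagen of hypertrophic cartilage, was listed at 0 in all 4 libraries.

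Type XV and type XVIII collagens are multiplexins of the basement membrane zone, and the pair parted. Col18a1 was listed at 128 and 129 FPKM in DKO cells against 106 and 150.2 in control cells, the highest level per length of any matrix gene in the controls by average. The 2 DKO values fell between the 2 control values, and the log2 difference was 0.02 ± 0.18 (SE). Col15a1, which is found around capillaries and muscle cells, was listed at 15.5 and 15.7 FPKM against 9.08 and 12.0, with a log2 difference of 0.55 ± 0.17 and no overlap. The symbol rule therefore took in a gene, Col18a1, that is usually placed in epithelial basement membranes. It did not share the pattern of the type I and type III chains.

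The transmembrane collagens, which are anchored in the plasma membrane, were all below 2 FPKM. Col13a1 was listed at 1.90 and 1.91 FPKM in DKO cells against 1.33 and 0.970 in control cells. The values of Col23a1 were 1.22 and 1.25 FPKM against 0.652 and 0.721, and those of Col25a1 were 1.22 and 1.56 against 1.80 and 1.31. None of the 4 genes of this class had an unadjusted limma p under 0.05, and 2 of the 4, Col13a1 and Col23a1, lay above both controls in both DKO libraries. Col17a1, a hemidesmosome protein, was at most 0.313 FPKM.

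Among the proteoglycans, the small leucine-rich members lay higher in the DKO libraries and the large one overlapped. Bgn, which encodes biglycan, was listed at 15.5 and 19.1 FPKM against 5.12 and 10.4, with a log2 difference of 1.18 ± 0.34 (SE). Dcn, which encodes the fibril-binding decorin, was listed at 10.8 and 20.1 FPKM against 7.13 and 8.23, a log2 difference of 0.91 ± 0.31. Lum, which encodes lumican, was listed at 2.71 and 2.75 FPKM against 1.58 and 2.21. Vcan, the large hyaluronan-binding versican, was listed at 46.9 and 44.0 FPKM in DKO cells against 49.8 and 27.1 in control cells, and control replicate 1 was the highest of the 4 libraries, whereas it was the lowest for the type I and type III chains.

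The genes of elastic fibers had the highest class median, 0.84 on the log2 scale over 7 genes. Eln, which encodes tropoelastin, was listed at 8.88 and 29.2 FPKM in DKO cells against 5.18 and 8.02 in control cells. The genotypes did not overlap, but DKO replicate 1 lay close to control replicate 2, and the log2 difference of 1.26 ± 0.58 (SE) was 0.43 without DKO replicate 2. Fbn1, the main fibrillin of the microfibril scaffold, was listed at 7.86 and 9.40 FPKM against 2.89 and 4.74, a log2 difference of 1.11 ± 0.27. Fbn2, the fibrillin of embryonic tissue, was more abundant, at 30.6 and 31.8 FPKM against 20.0 and 23.1, and had the smallest standard error of the matrix genes tested, with a log2 difference of 0.53 ± 0.12 and an adjusted limma p of 0.380.

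Lox, the lysyl oxidase that cross-links collagen and elastin, was listed at 4.53 and 7.91 FPKM in DKO cells against 2.98 and 3.32 in control cells. The fibulins bind elastin, fibrillins and basement membranes. Fbln1 was listed at 20.9 and 26.8 FPKM against 10.7 and 17.7, and Fbln5, which is needed for elastic fiber assembly in mice, at 2.33 and 3.66 against 1.01 and 1.66. Fbln2 was listed at 12.6 and 16.8 against 13.4 and 9.17 and was the only gene of the class whose genotypes overlapped. Of the 7 genes, 5 had an unadjusted limma p under 0.05.

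The adhesive and matricellular glycoproteins connect cells to these fibers. Sparc, a collagen-binding glycoprotein, had the highest average FPKM of the matrix genes in the DKO libraries, at 119 and 176 against 74.0 and 114 in the controls, with a log2 difference of 0.65 ± 0.28 (SE). Its DKO replicate 1 and control replicate 2 were close. Fn1, which encodes fibronectin, was listed at 47.6 and 48.5 FPKM against 27.4 and 36.5, a log2 difference of 0.60 ± 0.16, and Postn, which encodes periostin, at 13.1 and 15.9 against 8.23 and 12.5. Tnc, which encodes tenascin-C, was listed at 5.60 and 6.11 FPKM against 7.60 and 4.98, so that both DKO values fell between the control values.

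**Figure D2:**
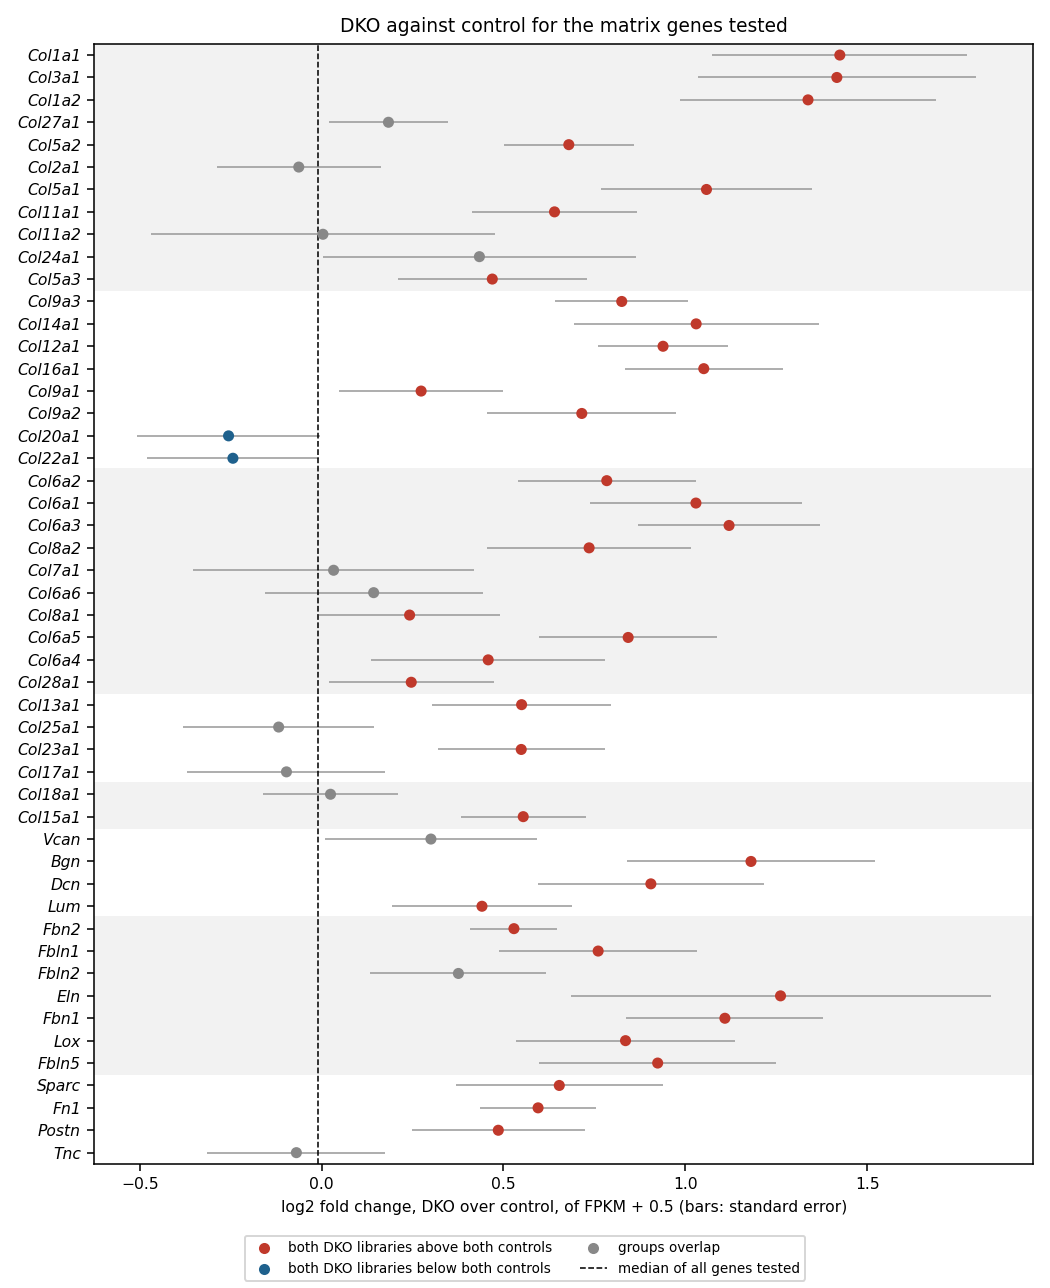
Log2 difference between DKO and control for the 50 matrix genes tested, as estimated by limma on FPKM + 0.5, with bars for 1 standard error and a dashed line at the median of all genes tested, -0.01. Points are colored by whether the DKO libraries both lie above the controls (36 genes), both lie below (2 genes) or overlap with them (12 genes); Col1a1 and Col3a1 have the highest values, 1.42, and no gene was called changed.

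The 12 matrix genes with a group average under 1 FPKM add little to the sums. They came to between 2.91 and 4.65 FPKM per library in total, against 481 to 997 FPKM for the other 40. Of these 12, 10 were tested, of which 5 lay above and 2 below the controls and 3 overlapped, with a median log2 difference of 0.19. The 2 that were not tested were Col10a1 and Col19a1, a basement membrane zone collagen listed at 0.0212 and 0.0401 FPKM in DKO cells against 0.139 and 0.0161 in control cells. Col28a1 was listed at 0 in control replicate 2, where an exact 0 in such a table can also be a failed estimate.

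The total was carried by few genes, largely shared between the genotypes but with different shares. By average FPKM, Sparc, Col18a1 and Col1a1 made up 40.7% of the DKO sum, whereas Col18a1, Sparc and Vcan made up 47.1% of the control sum. Col1a1 took 9.29% of the DKO sum and 5.26% of the control sum, while Col18a1 took 14.6% and 23.2%.

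Within each library some matrix genes kept a near-fixed ratio to Col1a1 and others did not. The ratio of Col3a1 to Col1a1 FPKM was 0.813 and 0.833 in DKO cells against 0.787 and 0.866 in control cells, a span of 1.10-fold while Col1a1 itself ran from 23.8 to 107 FPKM. Col1a2 ran from 0.624 to 0.806 times Col1a1, and Col6a2 from 0.946 to 1.27 times Col6a1. In contrast, the ratio of Col18a1 to Col1a1 was 2.28 and 1.20 in DKO cells against 4.45 and 4.36 in control cells, a span of 3.71-fold. Fn1 to Col1a1 was 0.845 and 0.452 against 1.15 and 1.06, and Sparc to Col1a1 was 2.12 and 1.64 against 3.11 and 3.33. For these 3 genes the DKO ratios were both below the control ratios, and DKO replicate 2 was the lowest. Col1a1, the divisor, had the highest log2 difference on the FPKM + 0.5 scale, so genes that differed less tend to give lower DKO ratios by arithmetic.

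**Figure D3:**
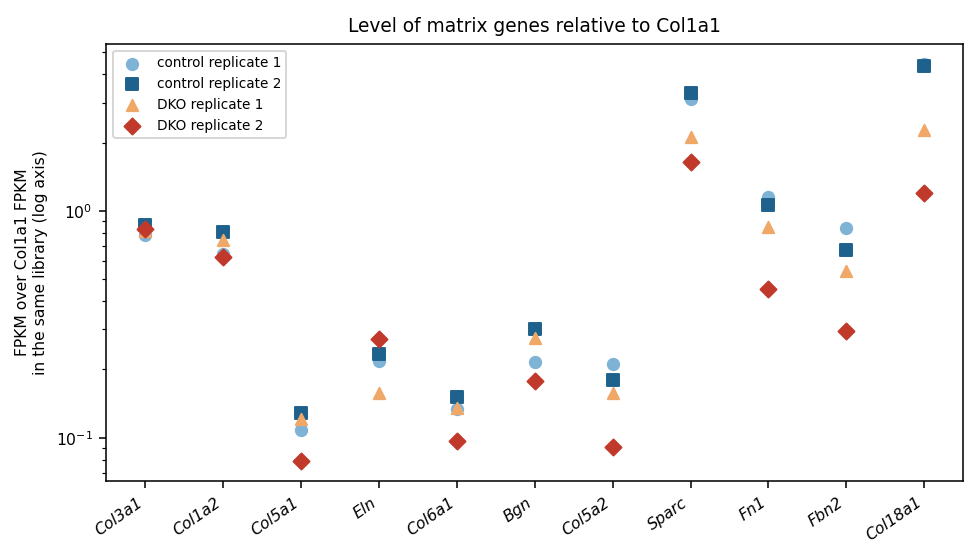
FPKM of 11 matrix genes divided by the FPKM of Col1a1 in the same library, 1 symbol per library, on a log axis. The 4 symbols of Col3a1 nearly coincide, between 0.787 and 0.866, while those of Col18a1 run from 1.20 in DKO replicate 2 to 4.45 in control replicate 1.

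The 4 libraries followed a single order for most matrix genes. In 30 of the 50 genes tested the values stood in the order control replicate 1, control replicate 2, DKO replicate 1, DKO replicate 2 from low to high, against 7.41% of all genes. Control replicate 1 was the lowest library in 36 of the 50 genes, against 5544 of all 18884, and DKO replicate 2 was the highest in 36, against 4383. The median log2 difference between the 2 DKO replicates, 0.25, and between the 2 control replicates, 0.27, compares with 0.57 between the genotypes. Control replicate 2 was above control replicate 1 in 39 of the 50 genes, against 8554 of all 18884, and control replicate 1 was also the library with the lowest relative depth, 0.508. Without control replicate 1, the median log2 difference of the matrix genes was 0.48.

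Members of the matrix group that neighbor each other in the genome did not all share levels. Col3a1 and Col5a2 lie on opposite strands of chromosome 1 with 24614 bases between them, and had log2 differences of 1.42 and 0.68. Their ratio of Col5a2 to Col3a1 ran from 0.109 in DKO replicate 2 to 0.270 in control replicate 1. Dcn and Lum lie in the same direction on chromosome 10 with 46984 bases between them, and the ratio of Lum to Dcn ran from 0.137 to 0.269. Col6a2 and Col6a1, 85161 bases apart on chromosome 10, had the closest levels of the adjacent pairs described here.

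Markers of the cell types that make interstitial matrix stood in the same order of libraries as the matrix genes by their sums. Taken one by one, 9 of the 18 stromal markers stood in that order, against 7.41% of all genes tested. Tcf21 and Meis2 did not. The summed FPKM of 18 stromal markers was 169 and 190.1 in DKO cells against 115 and 139.7 in control cells, with 15 of 18 above the controls in both DKO libraries and 5 at an unadjusted limma p under 0.05, all higher. Tcf21, a transcription factor of the renal stroma, was listed at 22.4 and 25.9 FPKM against 19.4 and 16.1, and Meis2, another stromal factor, at 30.7 and 27.4 against 25.2 and 20.0. None of the stromal markers was called, none was at 0 in any library, and their median log2 difference was 0.55. The ratio of the matrix sum to the stromal marker sum was 4.51 and 5.27 in DKO cells against 4.23 and 4.45 in control cells. The part of the stromal markers in the matrix result was not tested.

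Vascular and smooth muscle markers shared the order of the libraries by their sums. The 10 smooth muscle and pericyte markers, of which none was at 0 in any library, summed to 97.4 and 147 FPKM in DKO cells against 41.8 and 84.6 in control cells, with a median log2 difference of 0.81. Acta2, smooth muscle actin, was listed at 19.7 and 27.5 FPKM against 3.70 and 18.0, so that control replicate 1 stood alone at a low level. The 10 endothelial markers, again with none at 0, summed to 205 and 257 FPKM against 107 and 186, with a median log2 difference of 0.72. The matrix sum was 7.81 and 6.83 times the smooth muscle and pericyte sum in DKO cells, against 11.6 and 7.36 times in control cells. It was 3.71 and 3.90 times the endothelial sum in DKO cells, against 4.52 and 3.35 times in control cells. Both ratios overlapped between the genotypes. The ratio to the stromal markers did not, but DKO replicate 1, at 4.51, and control replicate 2, at 4.45, were close. The matrix sum was 0.385 and 0.481 times the ureteric marker sum in DKO cells, against 0.320 and 0.309 times in control cells. The part of the vascular, smooth muscle and ureteric cells in the matrix result was not tested either.

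Macrophage markers and proximal tubule markers were lower in the DKO libraries by their sums. All 10 macrophage markers were lower in both DKO libraries than in both controls, and 9 had an unadjusted limma p under 0.05, with sums of 506 and 476 FPKM against 1969 and 924. C1qb, a complement subunit made by macrophages, was listed at 110.4 and 107 FPKM against 424 and 202. Control replicate 1, the library with the lowest matrix sum, had the highest macrophage sum. All 10 proximal tubule markers were also lower, with sums of 288 and 261 against 508 and 599, and 1 of them, Gatm, was called. No macrophage or proximal tubule marker was at 0 in any library, and the part of either cell type in the matrix result was not tested.

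**Figure D4:**
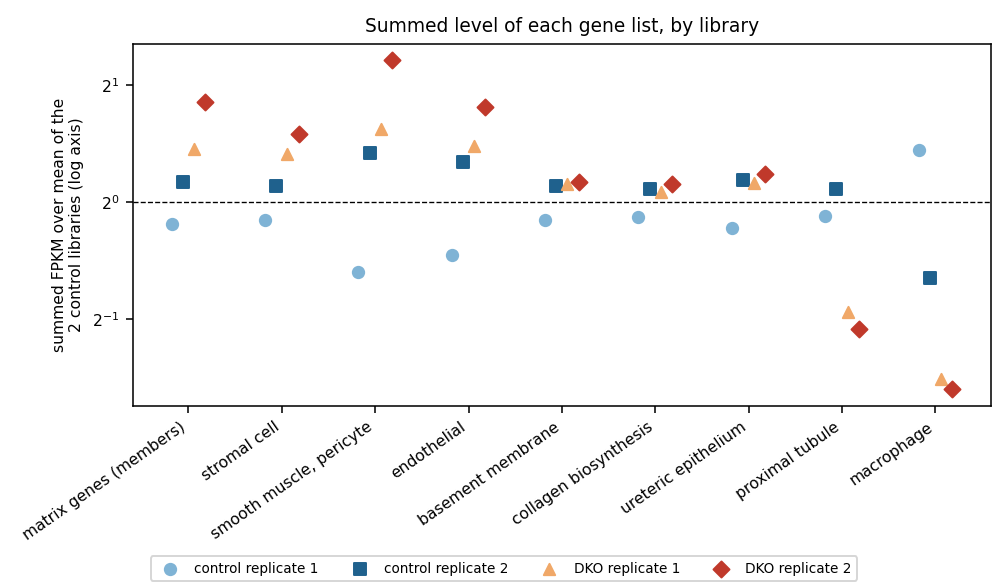
Summed FPKM of each gene list in each library, divided by the mean of the 2 control libraries, on a log axis with a dashed line at that mean. The sums of the matrix genes, of stromal, smooth muscle and endothelial markers are higher in both DKO libraries than in both controls, those of macrophage and proximal tubule markers are lower, and those of basement membrane and ureteric genes lie close together except in control replicate 1.

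The enzymes and chaperones that modify, fold and cross-link collagen had a median close to that of all genes. Of 27 collagen biosynthesis genes tested, 0 were called by limma, and 3 were higher and 1 lower at an unadjusted p under 0.05. Of the 27, 9 lay above and 2 below the controls and 16 overlapped, against 20.8% above and 22.6% below over all genes. The median log2 difference of the biosynthesis genes was 0.07, against 0.55 for the collagen chains tested. Serpinh1, the chaperone specific to procollagen, was listed at 307 and 323 FPKM in DKO cells against 228 and 293 in control cells. P4hb, a subunit of prolyl 4-hydroxylase that is also a general disulfide isomerase, was listed at 221 and 225 against 219.6 and 239.9.

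Other stromal matrix genes outside the symbol rule shared the direction in part. Of 30 tested, 0 were called by limma, 12 were higher and 1 lower at an unadjusted p under 0.05, 16 lay above, 3 below and 11 overlapped, and the median log2 difference was 0.43. Mfap2, a microfibril protein that binds fibrillin, was listed at 55.9 and 62.5 FPKM against 41.0 and 43.4. Cyr61, a matricellular protein and early-response gene, had lower values in the DKO libraries, at 31.7 and 25.9 against 62.5 and 41.2.

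The basement membrane genes, which were left out by the symbol rule, had a lower median than the matrix genes. Of 16 tested, 0 were called by limma, and 2 were higher and 0 lower at an unadjusted p under 0.05. Of the 16, 7 lay above and 0 below the controls and 9 overlapped, against 20.8% above and 22.6% below over all genes. The median log2 difference of the basement membrane genes was 0.17. Col4a1, a chain of the type IV collagen network, was listed at 191 and 203 FPKM in DKO cells against 127 and 186 in control cells. Both DKO values were above the controls, although control replicate 2 was close to them.

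The receptors for collagen and other matrix leaned higher in the DKO libraries, with some lower. Of 15 tested, 0 were called by limma, and 2 were higher and 1 lower at an unadjusted p under 0.05. Of the 15, 8 lay above and 2 below the controls and 5 overlapped, against 20.8% above and 22.6% below over all genes. The median log2 difference of the receptors was 0.28. Itgb1, the β subunit shared by the collagen-binding integrins, was listed at 131 and 136 FPKM against 118 and 132, and Ddr1, a collagen receptor tyrosine kinase of epithelia, at 52.2 and 54.3 against 41.9 and 60.0. Both overlapped between the genotypes.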

How the data were processed

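RNA was measured in 2 DKO and 2 control libraries of DBA-sorted kidney cells, each pooled from 3 embryos, sequenced in paired ends from strand-specific, poly(A)-selected libraries in a single lane. The authors mapped the reads to mm10, used Ensembl gene models and deposited an FPKM value for each gene in each library. TopHat 1.4.1 and Cuffdiff 2.2.1 are named in the submitters' processing notes. The scaling between libraries and the use of strand in counting are not given in the sources used here. No read totals come with the deposited FPKM, so depth is known only as a ratio between libraries, read from steps between FPKM values up to 0.3. The columns sum to between 581976 and 678178 FPKM. The authors' columns of average FPKM were not used, and 2 emptied lines were left out. The DKO columns are headed as knockdown in the file and were matched to the knockout samples by replicate number.

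Genes with a larger group average above 0.1 FPKM were tested in R 4.3.3 by limma 3.58.1, two-sided and with a variance trend, on log2 values of FPKM plus 0.5, with the fold rule and minimum level of the study's methods. The test was also run on simulated data, and the outcome is not reported here. Other steps used Python 3.11.15, pandas 2.3.3, numpy 2.4.6 and matplotlib 3.10.9. Exons came from GENCODE M21, a later annotation than that of the authors, in which all 52 genes were found, and promoters from RefSeq on GRCm38.p6. The members and gene lists were chosen with earlier results of these data known. All members were accounted for, those of at least 1 FPKM by library, and of each other list genes among the 4 highest by mean FPKM were named. Named outside that rule, after their values were seen, were Ret, Gata3, Cdh1, Acan, Comp, Matn1 and members under 1 FPKM. Of the listed genes, 4 had no row in the table and 1 had several rows, and these were left out. The alternatives tried changed the pseudocount (0.1 or 1), the filter, the scaling (TPM or median ratio) or the variance model, added a replicate block, or left out each library in turn.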

Additional observations from a re-analysis of the deposited data

How the results depend on the processing

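No matrix gene was called in any of the 13 alternatives. The median log2 difference of the matrix genes ran from 0.53 with a pseudocount of 1 to 0.74 with 0.1, and from 0.48 to 0.75 when each library was left out. The count of matrix genes above both controls was 31 of 40 with the filter at 1 FPKM and 38 of 51 with TPM scaling. It was 38 to 41 when each library was left out. Fewer values then have to be in order, so this count tends to rise by construction and is no check of the pattern. TPM scaling moved the median of all genes from -0.01 to 0.11, a shift to set against the median of 0.73 for the matrix genes, and turned the signs of Tnc (0.056) and Col2a1 (0.061).

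The count of called genes over all genes was 4. It was 1 without a filter on low values, 2 without a variance trend, and 0 in each of the 4 fits that left out a library. With the replicate number as a block it was 16, 6 higher and 10 lower, and no matrix gene was among them, with a smallest adjusted limma p of 0.062 for a matrix gene. The numbers are not shown to pair the pools, since nothing in the labels links them, and the differences between replicates correlated between genotypes at 0.10 over 18884 genes and at 0.33 over the 50 matrix genes, with only 2 pairs.

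Across the fits that left out a library, some matrix genes near 0 turned sign. Col2a1 ran from -0.28 to 0.15, Col11a2 from -0.49 to 0.50, Col18a1 from -0.23 to 0.27, Col24a1 from -0.12 to 0.98, Col25a1 from -0.29 to 0.053, Tnc from -0.35 to 0.21 and Vcan from -0.13 to 0.73. Fits that left 1 library in a group assume that it varies like the others. The causes were not tested. Without read totals, counting error could not be computed.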
